A study of Solanum lycopersicum with 3 samples.

Results

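A pair of probes for phosphate transporters, SGN-U219805 (inorganic phosphate transporter) and SGN-U219528 (phosphate transporter 3), had a lower signal in ripe tomato fruit of the Lycb-1 line than in the wild type on each of 3 arrays. By the mean log2 ratio after normalisation, the difference was 4.62-fold for SGN-U219805 and 12.4-fold for SGN-U219528. The Lycb-1 signal was dim, 131 to 314 for SGN-U219805 and 35 to 252 for SGN-U219528, which limits how far these folds can be read. The probes were taken by their names and had been selected on these log2 ratios of Lycb-1 over wild type, so the ratios are a description and carry no test. They are 2 of the 5720 gene probes that could be tested on all 3 arrays, out of 11863 gene probes on the TOM2 long-oligo array, a slide that holds tomato gene sequences as spotted DNA.

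Each array compared RNA of fruit of the tomato cultivar Zhongshu No. 5 (WT) with fruit of plants of the same cultivar carrying Lycb-1, the coding region of a citrus lycopene β-cyclase under the constitutive CaMV 35S promoter with kanamycin selection. Lycopene β-cyclase closes the rings of lycopene to give β-carotene. The transgenic plants descended from 1 transformant, so what the transgene does and what is peculiar to that insertion or line cannot be told apart. Ripe fruit was taken 10 days after breaker (the first colour change), deseeded, and pooled as 4 to 5 fruits from 3 plants, with 1 pool of each genotype on an array and all plants watered and fertilised as needed. On all 3 arrays Cy5 marked Lycb-1 and Cy3 marked the wild type. With 0 arrays of swapped dyes, a difference between genotypes and a dye bias of a single probe cannot be told apart. In such bulk RNA, fewer cells of a type and less RNA per cell cannot be told apart either.

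Plants take up phosphate and move it between tissues with transporters of the plasma membrane that carry phosphate together with protons, the PHT1 family, driven by the gradient that H+-ATPases build. Other proteins carry phosphate inside the cell: PHT2 transporters in the chloroplast envelope, exchangers that swap phosphate for sugar phosphates across plastid membranes, and carriers of the mitochondrion. Members of the PHO1 family export phosphate from cells, and proteins with an SPX domain sense the phosphate status. PHT1 genes are best known from roots, where low phosphate raises many of them, and several are also transcribed in shoots and fruit.

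Both members belong by annotation to the plasma membrane group. The array files give AT2G38940, known as PHT1;4, as the closest Arabidopsis gene of SGN-U219805, and AT2G32830, known as PHT1;5, as that of SGN-U219528. The match of SGN-U219528 was much the weaker, with an E-value (lower for a stronger match) of 9e-18 against 1e-120 for SGN-U219805. A further probe, SGN-U222874 (putative phosphate transporter), has AT5G43360, known as PHT1;3, as its closest Arabidopsis gene. Its ratio was not used in choosing the members and was tested. The tomato reference table names 4 genes PT1 to PT4, with PT1 and PT3 next to each other on chromosome 9 with 0 genes between them, PT2 on chromosome 3 and PT4 on chromosome 6. None of the probe names or sequence accessions of the 3 probes was matched in that table, so which tomato gene each probe reports is given here only by its description. Members of this family resemble each other, and a spotted oligo may also bind the transcript of a relative.

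In fruit of both genotypes the probe SGN-U219805 was above the 99th percentile of the empty spots. Its Cy5 signal (Lycb-1), background subtracted and in scanner units before normalisation, was 289 on the array of replicate 1, 131 on that of replicate 2 and 314 on that of replicate 3. Its Cy3 signal (wild type) was 1138, 815 and 1661 on the same arrays. The wild type signal was the higher one on every array, by 3.94-, 6.22- and 5.29-fold before normalisation, and the lowest wild type value lay above the highest Lycb-1 value. After print-tip loess, which removes the dependence of the ratio on brightness within each of the 48 printed blocks, the log2 ratio of Lycb-1 over wild type was -1.68, -2.62 and -2.33. The mean was -2.21 (SD 0.48, SE of the mean 0.28, n = 3 arrays). Both dyes varied by a like factor between arrays, 2.40-fold from the lowest to the highest in Cy5 and 2.04-fold in Cy3, and the values of replicate 2 were the lowest in both.

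SGN-U219528 had a wild type signal that changed little between arrays and a Lycb-1 signal that changed much. Its Cy5 signal (Lycb-1) was 35, 65 and 252 on the arrays of replicates 1, 2 and 3. Its Cy3 signal (wild type) was 1340, 1150 and 1081. The wild type signal was again higher on every array with no overlap, by 38.3-, 17.7- and 4.29-fold before normalisation, and the Lycb-1 signal of replicate 3 stood well above those of the other arrays. The log2 ratios after print-tip loess were -4.94, -3.86 and -2.11, with a mean of -3.64 (SD 1.43, SE of the mean 0.82, n = 3 arrays). The highest Cy5 value was 7.20 times the lowest, whereas the Cy3 values lay within a factor of 1.24. On the normalised log2 scale the SD over the arrays was 1.20 in the Lycb-1 channel and 0.22 in the wild type channel, so the spread of this ratio lay mostly in the Lycb-1 channel. For SGN-U219805 the corresponding SDs were 0.67 and 0.35.

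**Figure D1:**
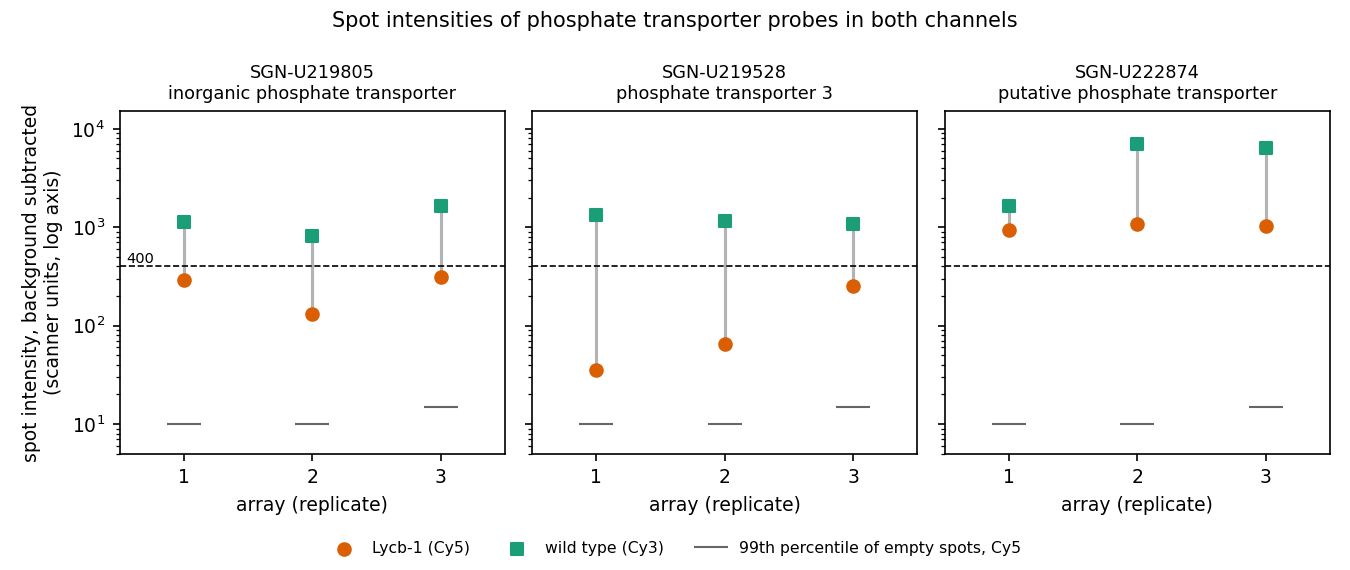
Background-subtracted spot intensity (scanner units, log axis) of 3 phosphate transporter probes on each array, with Lycb-1 (Cy5) as circles, wild type (Cy3) as squares, the limit of 400 as a dashed line and the 99th percentile of the Cy5 signal of empty spots as short bars. The wild type lies above Lycb-1 in every pair, and the Lycb-1 signals of SGN-U219805 (131 to 314) and SGN-U219528 (35 to 252) lie below 400 and above that percentile.

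The Lycb-1 signal of both members was dim, which limits how far their ratios can be read. It was below 400, the lowest brighter-channel signal of the spots the authors kept as checked, on all 3 arrays, while the wild type signal was above 400 on all 3. The Lycb-1 channel was then set on each array to the lowest normalised value of Cy5 spots of at least 400. The wild type came out 3.05-fold higher for SGN-U219805 and 3.05-fold higher for SGN-U219528. All Lycb-1 values of both members were replaced in this way, so these figures reflect the wild type channel alone. Its mean normalised log2 signal was 10.12 for both members. Since the lowest such value was used, a higher one would give a smaller fold. The figures are therefore not strict lower bounds, and they are point values without an error. The limit of 400 lies far above most of the 1568 empty spots of each array: their Cy5 signal had a 99th percentile of 10, 10 and 15, although the brightest reached 1897, 1832 and 2834. The Lycb-1 signal of SGN-U219805 was 28.9, 13.1 and 20.9 times that percentile, and the Lycb-1 signal of SGN-U219528 was 3.5, 6.5 and 16.8 times it. The brightest empty spot in the printed block of either member was between 4 and 10 in Cy5, so all 6 Lycb-1 values exceeded the empty spots of their own block. Each member is printed as 1 spot on an array, so there is no second spot to check a value against.

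The members did not differ from the wild type by the same amount on each array. On the log2 scale the ratio of SGN-U219528 minus that of SGN-U219805 was -3.26 on the array of replicate 1, -1.24 on that of replicate 2 and 0.21 on that of replicate 3. The mean of these differences was -1.43 with an SD of 1.74, so the order of the members was not the same on every array, and the difference between them was smaller than its spread. Over all tested probes, ranked from the lowest mean log2 ratio, SGN-U219528 came 3rd and SGN-U219805 came 16th. Array by array, SGN-U219528 ranked 1st, 5th and 150th and SGN-U219805 ranked 67th, 31st and 126th. SGN-U219528 thus owed its rank in the mean to the arrays of replicates 1 and 2, where its Lycb-1 signal was 35 and 65. Without the array of replicate 1 its mean log2 ratio was -2.99 and without that of replicate 3 it was -4.40.

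The third plasma membrane probe, SGN-U222874, also had a lower signal in Lycb-1 on all 3 arrays, and there the Lycb-1 channel was not dim. Its Cy5 signal (Lycb-1) was 933, 1089 and 1027 and its Cy3 signal (wild type) was 1647, 7077 and 6406. The Lycb-1 signal was nearly the same on every array, the wild type signal varied 4.30-fold, and the channels did not overlap. The log2 ratios were -0.71, -2.62 and -2.71, with a mean of -2.01 (SD 1.13, n = 3 arrays). In limma it had an unadjusted p = 0.00622 and an adjusted p = 0.217 over the 5720 probes. It therefore did not pass the threshold of an adjusted p under 0.05. The spread of this probe lay in the wild type channel and that of SGN-U219528 in the Lycb-1 channel.

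The array carries 3 more probes described as a chloroplast phosphate transporter precursor, all with AT3G26570, known as PHT2;1, as the closest Arabidopsis gene. SGN-U222265 had log2 ratios of -0.78, -1.01 and -0.25 and a mean of -0.68 (SE of the mean 0.22, unadjusted p = 0.0291 and adjusted p = 0.284 from limma, n = 3 arrays). Its Cy5 signal ranged from 1255 to 2177 and its Cy3 signal from 2144 to 2984, and the channels overlapped between arrays. SGN-U225826 had log2 ratios of -1.67, -0.26 and 0.13, a mean of -0.60 and an adjusted p = 0.489 from limma. Its wild type signal stayed between 1022 and 1410 while its Lycb-1 signal was 322, 840 and 1699, so this probe too was lowest in Lycb-1 on the array of replicate 1, and its sign changed on that of replicate 3. SGN-U238447 was too dim for a test, with at most 23 in Cy5 and 43 in Cy3.

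**Figure D2:**
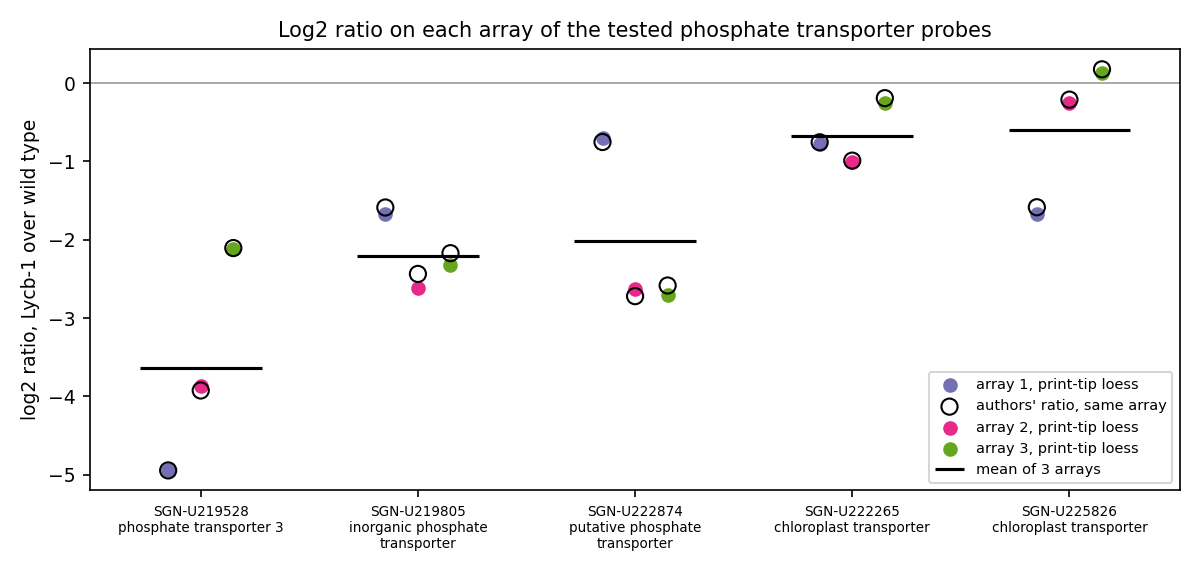
Log2 ratio of Lycb-1 over wild type (y axis) of the 5 tested phosphate transporter probes, 1 filled point per array after print-tip loess, an open circle for the authors' own ratio of the same array, and a bar for the mean of 3 arrays. SGN-U219528 spans -4.94 to -2.11 and SGN-U219805 spans -2.62 to -1.68, while the chloroplast probe SGN-U225826 reaches 0.13.

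Described as a list, the phosphate transporter probes numbered 6 on the array, of which 5 were tested, with a median of the mean log2 ratios of -2.01. The median of the 3 tested probes other than the members was -0.68, and the median over all tested probes was -0.01, with a 5th percentile of -0.89 and a 95th percentile of 0.73. Of these 3 probes 0 passed at an adjusted p under 0.05 in limma in either direction, where 1 of all 5720 probes (0.0175%) was called lower and 2 (0.035%) higher. At an unadjusted p under 0.05, 2 of the 3 were lower, against 8.62% of all probes, and 0 were higher, against 6.82%. The ratio was below 0 on all 3 arrays for 2 of the 3, SGN-U222874 and SGN-U222265, against 21.3% of all probes. A log2 ratio below -1 on every array was found for 53 probes (0.927%), among them both members, for which this follows from how they were chosen, and 0 of the other 3. A log2 ratio above 1 on every array was found for 34 probes (0.594%) and for none of the 5 tested phosphate transporters. With so few probes these counts describe the list and no more.

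Transporters that exchange phosphate for other compounds inside the cell had ratios near 0. Of 11 probes for plastid and mitochondrial exchangers 6 were tested, their median log2 ratio was -0.03, and the means ran from -0.20 to 0.29. None of the 6 was below 0, or above 0, on all 3 arrays, against 21.3% and 20.4% of all probes. At an unadjusted p under 0.05 in limma 0 passed, against 8.62% of all probes lower and 6.82% higher, and 0 passed after adjustment. With 6 probes these counts describe the list only. The triose phosphate/phosphate translocator SGN-U213108, which carries triose phosphates out of the chloroplast, had the largest mean at 0.29 (adjusted p = 0.696 from limma, n = 3). The glucose-6-phosphate/phosphate translocator SGN-U220478, which imports glucose 6-phosphate into plastids that make starch, had -0.20 (adjusted p = 0.688). The mitochondrial phosphate carrier SGN-U214237, which supplies phosphate for ATP synthesis, had -0.09 (adjusted p = 0.848), at signals of 3500 to 8233 in both channels.

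The proton pumps that drive PHT1 transport had ratios slightly below 0. Of 6 probes for plasma membrane H+-ATPases 3 were tested, with means of -0.42 for LHA2 (SGN-U214683, adjusted p = 0.432), -0.40 for SGN-U215042 (adjusted p = 0.379) and -0.27 for SGN-U232997 (adjusted p = 0.615), all from limma with n = 3. None passed, and 2 of the 3 were below 0 on all 3 arrays, as were 21.3% of all probes. The probe for PHF1 (SGN-U219119), which in Arabidopsis helps PHT1 proteins leave the endoplasmic reticulum, was looked up after its values had been seen. Its log2 ratios were -0.62, -0.70 and 0.06, with a mean of -0.42 (adjusted p = 0.43 from limma), so it was not called.

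Export and sensing of phosphate could not be followed on these arrays. All 5 probes for PHO1-like and SPX proteins were left untested, since 4 were below 400 in both channels on every array and SGN-U218372 reached 400 or more on 1 array. Its signals were 217 to 352 in Cy5 and 378 to 626 in Cy3.

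Among genes that release phosphate from organic compounds, measured ratios had either sign and none passed over all probes. The list held 29 probes, of which 10 were tested, with a median log2 ratio of 0.02, 0 calls at an adjusted p under 0.05 and, unadjusted, 1 lower and 1 higher (8.62% and 6.82% of all probes). Ribonuclease LX (SGN-U219709), an S-like RNase that tomato cells make when phosphate is short and in senescence, had log2 ratios of -1.56, -2.70 and -1.16, a mean of -1.81, an unadjusted p = 0.00304 and an adjusted p = 0.183 from limma (n = 3 arrays). Acid phosphatase 1 (SGN-U223217), which cleaves phosphate esters, had the opposite sign, with 1.01, 0.93 and 0.68, a mean of 0.87 and an adjusted p = 0.21. The glycerophosphoryl diester phosphodiesterase SGN-U225154, which acts on the products of phospholipid breakdown, had 0.75 (adjusted p = 0.405). The 19 other probes of this list were too dim on at least 1 array, and several purple acid phosphatase probes were among them.

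Plants replace phospholipids by galactolipids and sulfolipids when phosphate is short. The list for this change joined enzymes of galactolipid and sulfolipid synthesis with phospholipases C and D, and its median lay near that of all probes. The tested probes for galactolipid and sulfolipid synthesis alone had mean log2 ratios of 0.47, 0.45, 0.30, 0.17 and -0.09. Of 29 probes 12 were tested, with a median log2 ratio of 0.04 and a range from -0.55 to 0.47. At an unadjusted p under 0.05 in limma 0 passed, against 8.62% of all probes lower and 6.82% higher, and 0 passed after adjustment. Sulfoquinovosyldiacylglycerol synthase (SGN-U236416), the last step of sulfolipid synthesis, had a mean of 0.45 (adjusted p = 0.409), and digalactosyldiacylglycerol synthase 2 (SGN-U220224) had 0.47 (adjusted p = 0.615), to which the array of replicate 2 contributed 1.67. Of the tested probes described as similar to phospholipase D zeta, SGN-U230570 had -0.55 (adjusted p = 0.432) and SGN-U221573 had the opposite sign, with a mean of 0.19.

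Probes of the list for other mineral ion transporters had ratios of either sign. The list was made from words, so it also holds potassium channel tetramerization domain-containing proteins, tested at mean log2 ratios of -0.86 and 0.29. Of 43 probes 10 were tested, with a median log2 ratio of -0.18, and 0 passed at an adjusted p under 0.05 in limma, with 3 lower and 1 higher at an unadjusted p under 0.05 (8.62% and 6.82% of all probes). The high affinity sulfate transporter SGN-U237096 had the largest mean, 2.10, from log2 ratios of 4.01, 2.85 and -0.54 (adjusted p = 0.339), and its sign changed on the array of replicate 3. Its signals were dim, 51 to 575 in the wild type and 343 to 635 in Lycb-1. The inward rectifying potassium channel SGN-U217439 had -2.98, -1.49 and -0.63, a mean of -1.70 (adjusted p = 0.249), with a Lycb-1 signal of 41 to 491. The magnesium transporter SGN-U220691 had 1.21, 0.72 and 0.71, a mean of 0.88 (adjusted p = 0.229), with a wild type signal of 312 to 354.

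The probes whose ratios lay closest to those of SGN-U219805 included a pair of chitinases. Closeness was measured as the root mean square difference between the 3 log2 ratios, over all tested probes with a description, and it is a description over 3 arrays. The 5 closest were a basic 30 kDa endochitinase (SGN-U212883, difference 0.26), endochitinase A (SGN-U212884, 0.26), the xyloglucan endotransglycosylase LeXET2 (SGN-U215153, 0.34), a putative allergen Pru du 2.04 (SGN-U216076, 0.37) and the suberization-associated anionic peroxidase 2 (SGN-U215393, 0.49). Chitinases cleave the chitin of fungal walls, xyloglucan endotransglycosylases cut and rejoin wall xyloglucan, and this class of peroxidase acts in suberin formation. The Lycb-1 channel of SGN-U215153 and SGN-U216076 was below 400 on all 3 arrays, as it was in SGN-U219805, and that of SGN-U215393 on 1 array. The phosphate transporter SGN-U222874 was at 0.60 from SGN-U219805, with 8 of all tested probes, described or not, closer.

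No probe with a description followed SGN-U219528 as closely. Its nearest was peroxidase 4 (SGN-U213352) at a difference of 0.92, with log2 ratios of -3.52, -4.28 and -2.70. The vacuolar citrate/H+ symporter SGN-U242423, which carries citrate across the tonoplast, was at 1.22, with log2 ratios of -3.36, -2.76 and -1.23. The others were a second peroxidase 4 probe (SGN-U213351, 1.32), a putative tropinone reductase (SGN-U217262, 1.36) and glucan endo-1,3-beta-glucosidase B (SGN-U212827, 1.44). In both peroxidase 4 probes and in the citrate symporter the Lycb-1 channel was below 400 on all 3 arrays, as it was in SGN-U219528. Between the members the difference was 2.02, with 1478 of all tested probes, described or not, closer to SGN-U219805 than SGN-U219528 was.

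**Figure D3:**
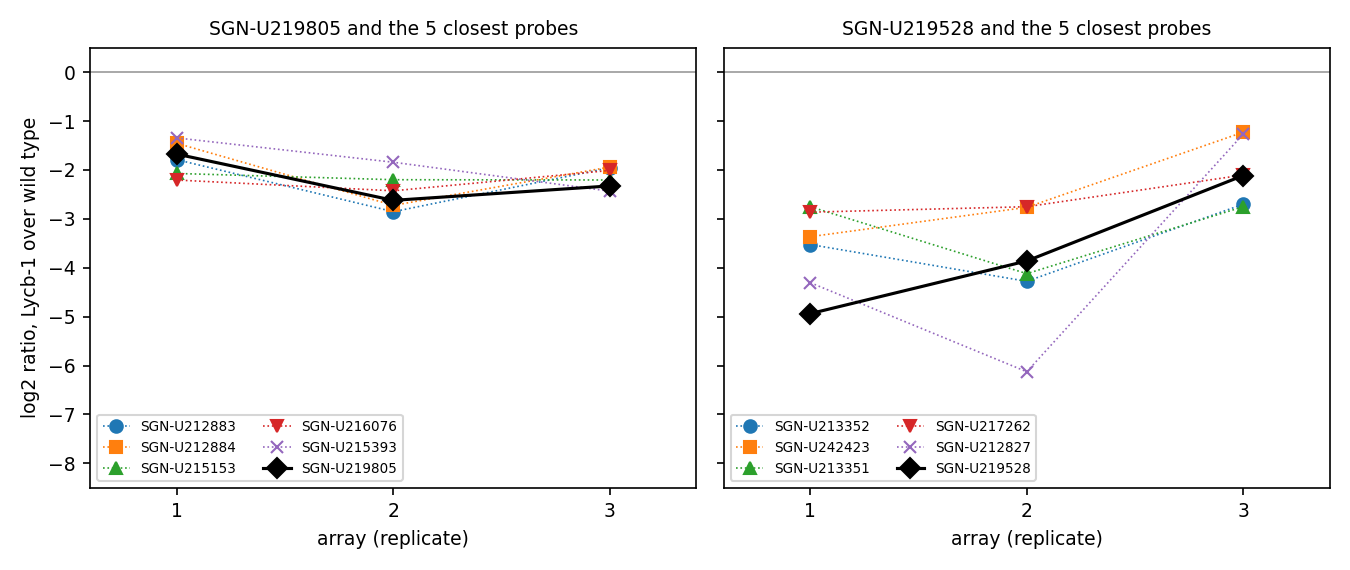
Log2 ratio of Lycb-1 over wild type (y axis) on the array of each replicate (x axis) for SGN-U219805 and SGN-U219528 (black diamonds) and the 5 probes closest to each. Lines only join the values of a probe, since replicates have no order. The neighbours of SGN-U219805 lie within 0.26 to 0.49 of it (root mean square), and those of SGN-U219528 within 0.92 to 1.44.

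As a check of the labels, the kanamycin resistance gene nptII (X57709) of the construct had a mean log2 ratio of 6.80 and lycopene β-cyclase (SGN-U221920) one of 3.08, each with an adjusted p = 0.045 from limma, and both rose on all 3 arrays. They were the 2 probes called higher among all tested probes. SGN-U221920 is a tomato probe, and whether it read the citrus transcript or that of the tomato gene was not tested. Measured ratios of ripe fruit, green tissue and epidermis markers had medians away from 0, though 0 probes of these lists or of the seed list passed at an adjusted p under 0.05 in limma. Of 17 tested ripe fruit markers 13 were above 0 on all 3 arrays (20.4% of all probes were), with a median of 0.80. The unnormalised signals of all 28 such probes summed to 545290 to 734742 in Lycb-1 and 171662 to 218100 in the wild type. Of 27 tested green tissue markers 19 were below 0 on all 3 arrays (21.3% of all probes were), with a median of -1.22, and 3 were above 0 on all 3 arrays. The lowest means were those of chlorophyll a/b-binding proteins. The tested probes for the small subunit of ribulose bisphosphate carboxylase had mean log2 ratios of 1.02, 0.33, -0.10, -0.12 and -0.63. The sums of all 51 probes on the arrays of replicates 1, 2 and 3 were 73892, 81522 and 40283 in Lycb-1 and 61218, 104730 and 63534 in the wild type, so the sum was higher in Lycb-1 on the array of replicate 1 and lower on the others. Of 9 tested epidermis and cuticle markers 4 were below 0 on all 3 arrays (21.3% of all probes), with a median of -1.11, and the sums of all 14 were 32435 to 40858 and 39935 to 77675. The probe at this median, the lipid transfer protein SGN-U212736, had 2.08, -2.50 and -2.91, so its sign changed on the array of replicate 1. The sign of SGN-U213641 changed there too, with 2.39, -1.40 and -4.56. Made from words, the list also holds a glycolipid transfer protein. Of 3 tested seed markers 1 was below and 1 above 0 on all 3 arrays (21.3% and 20.4% of all probes). The sums of all 6 were 17525 to 25638 and 13189 to 20453. On each array 3 of the 6 reached 400 or more in Cy5, and 3, 4 and 3 did in Cy3. The fruit had been deseeded, and whether these sums hold seed RNA was not tested. On the array of replicate 3 the seed sum was lower in Lycb-1 and on the others it was higher. Of the 3 tested seed markers, SGN-U221589 and SGN-U218425, described as protease inhibitor/seed storage/lipid transfer proteins, are also on the epidermis list. Their mean log2 ratios were -0.54 and -1.45, and that of the remaining tested seed marker, a steroleosin (SGN-U216554), was 1.68. The legumin-like probes of the seed list were left untested. The ripe fruit and the green tissue list each had 1 probe at the level of the empty spots on all arrays, and the other lists had 0. The part of these marker values in the ratios of the phosphate transporters was not tested.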

How the data were processed

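RNA of ripe Lycb-1 and wild type fruit was hybridised to 3 two-colour arrays of 13728 spots. The authors deposited background-subtracted intensities of both channels, a ratio (Lycb-1 over wild type) that they had normalised by print-tip lowess, and a table of log2 values of that ratio. They also deposited lists of checked spots (6306, 6289 and 6855 per array) and of differentially expressed spots, and the latter was not used. The 13 control names and the empty spots had weight 0 and were then removed. Intensities were normalised by print-tip loess (limma 3.58.1, R 4.3.3, 48 blocks of 286 spots). The 5846 spots checked on all 3 arrays were averaged per probe (5720 probes). The mean log2 ratio was tested against 0 with lmFit and eBayes, two-sided, with Benjamini-Hochberg adjustment over all probes. The labels number the arrays as replicates, the methods of the study call them biological replicates, and their number limits the precision. The procedure was tested on simulated data.

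The members and the gene lists, made from words in the descriptions (phosphate transporters, plastid and mitochondrial phosphate exchangers, PHO1/SPX, phosphate release, lipid remodelling, proton pumps, other mineral ion transporters, and ripe fruit, green tissue, seed and epidermis markers), were chosen with earlier results of these arrays known. Probes were named by rule. They were the members, all tested phosphate transporters, and up to 3 probes with the largest mean ratio in size of each further list. The 5 closest to each member and the probes for nptII and lycopene β-cyclase were named too. The markers are given by list, apart from some green tissue, seed and epidermis probes. PHF1 and another phospholipase D zeta probe were added by hand. Probe sequences were not used here. Figures were drawn with matplotlib 3.10.9 (Python 3.11.15).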

Additional observations from a re-analysis of the deposited data

How the results depend on the processing

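The mean log2 ratio of each member kept its sign under every alternative that gave one, and moved by less than 1 SD over the arrays. With an array left out it ranged from -2.47 to -2.001 for SGN-U219805 and from -4.40 to -2.99 for SGN-U219528. With 50 added to both channels it was -2.01 and -2.98. Each member has 1 spot, so averaging made no difference. With both channels required at 400 or more, both members dropped out, the list median was -1.35 over the 2 probes left, and 2 were below 0 on every array. With the 99th percentile of empty spots as the limit no value was replaced. The calculation then returned the mean folds after normalisation, 4.62 and 12.4, which are estimates and not bounds. Numbers of probes called lower and higher over all probes depended on the settings: 0 and 0 with the authors' ratio, 6 and 3 under global loess, 9 and 8 when arrays were centred on the median, 0 and 0 without a filter on dim spots, 0 and 1 under the stricter filter of 400 in each channel, 0 and 0 by the methods' t-test after adjustment, and 0 lower and 0 to 1 higher with an array left out. Without the replicate block that pairs the channels of an array they were 4 and 4. None of these calls was a phosphate transporter other than a member under the settings of normalisation, filter or arrays. Median centring moved the median of all probes from -0.01 to 0.15 and the share below 0 from 50.9% to 36.9%. The causes were not tested.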
